A study of Rattus norvegicus with 16 samples.

Results

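The pubertal mammary gland of female rats whose mothers had been given vinclozolin was compared with the gland of unexposed females at postnatal day (PND) 35. Vinclozolin is a fungicide whose metabolites block the androgen receptor. The vinclozolin group was a pair of RNA pools from offspring of dams gavaged daily with 1 mg of vinclozolin per kg body weight, between gestational day 1 and weaning at PND 21. The control group was a pair of pools from offspring of dams recorded as untreated; whether those dams were gavaged with vehicle, the labels do not say. The comparison used these 4 of the 16 arrays in the series, and all 16 entered the fit that estimated the spread.

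All animals were Wistar Han females on a purified diet free of phytoestrogens, with 1 female taken per litter. RNA was extracted from single glands and pooled from 5 animals for each array. The other day 35 groups, used here for their levels, came from dams given the same vinclozolin dose with genistein at 1 mg per kg (the mixture) or genistein alone, and the same 4 groups were sampled at PND 50. Each group had 2 pools, so an exact permutation test of a pair against a pair cannot go below p = 0.333, and p-values come from a limma fit across 11796 genes. They measure the spread between pools of animals, not between animals, as 1 estimate per gene over all 8 groups. Where the vinclozolin pools differ more than the other pairs, the SE and p-value can therefore be too small. Values are log2 signal as deposited, each pool's median lay between 7.05 and 7.14, and the number of arrays limits the precision.

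Hair fibres are built in the follicle from keratins and cysteine-rich keratin-associated proteins, around which the inner root sheath forms a mould made of its own set of keratins. The surface epidermis makes other keratins and a cornified envelope, and a sebaceous gland sits on each follicle. The mammary gland itself develops from the same embryonic ectoderm, lies under the skin, and makes simple keratins such as Krt8 and Krt18 in luminal cells and Krt14 in basal cells. Androgens restrain the growth of the mammary epithelium, and estrogen, progesterone and prolactin drive it through puberty.

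In the vinclozolin pools 114 genes were higher (0.966% of those tested) and 44 were lower (0.373%) than in the control pools at an adjusted p under 0.05, 158 in all (1.34%). The 9 lists of hair and skin genes held 150 genes, and the array named 104 of them, with 85 past the filter on low values. Of these 85, 44 rose and none fell, with log2 fold changes from 0.49 to 5.53 (median 1.81), while the median over all genes tested was -0.02. In pooled tissue, more cells of a type and more RNA per cell cannot be told apart. Keratins outside those lists gave 4 more higher genes of 15 tested. Among the other 11696 genes, 66 rose and 44 fell. For comparison, the pools of both groups did not overlap in 18.3% of all genes tested with vinclozolin above and in 24.3% with vinclozolin below. Of the 85 hair and skin genes, 10 passed the filter only through the vinclozolin pools and had to differ. Of these, 7 are among the 44 (Krt25, Krt26, Krt27, Krtap15-1, Dsg4, Klk10 and Elovl3), and their values are a description with no weight as a test. With the filter set on the 14 other arrays, 136 genes passed, of which 35 were hair and skin genes, all higher. The 19 named genes under the filter had differences of the group means between -0.14 and 2.83 (median 0.10).

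**Figure D1:**
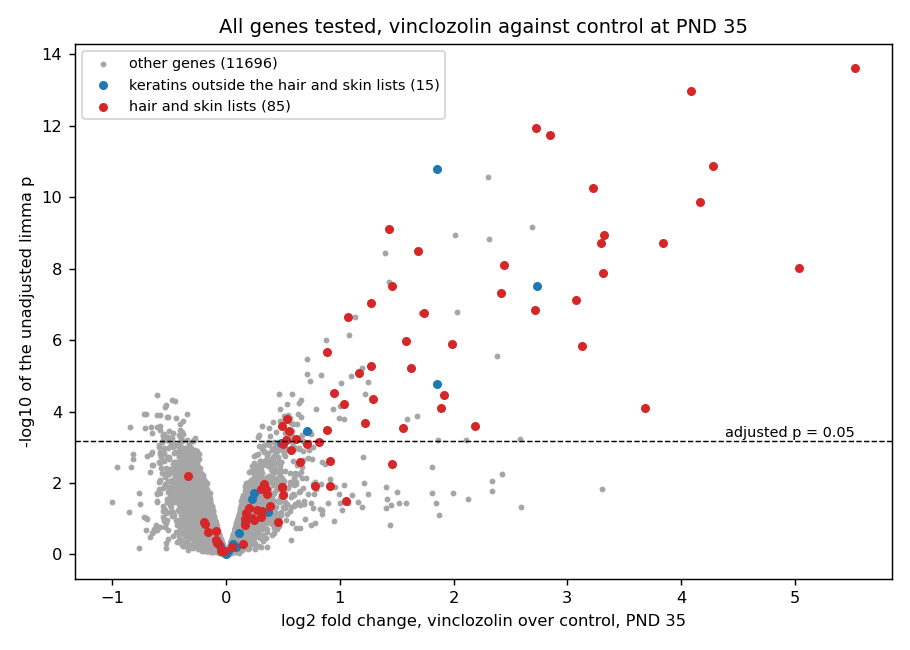
Log2 fold change of vinclozolin over control at PND 35 (x axis) against the -log10 of the unadjusted limma p (y axis) for the 11696 other genes (grey), 15 keratins outside the hair and skin lists (blue) and 85 hair and skin genes (red). The dashed line marks the adjusted p of 0.05, and all 44 hair and skin genes above it lie to the right of 0.

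The inner root sheath keratins moved furthest. All 6 members on the array rose, with a median log2 fold change of 4.13, and their mean level was 9.96 and 9.50 in the vinclozolin pools, against 5.68 and 5.79 in the control pools. Krt25, a type I keratin of the inner root sheath, had log2 values of 10.48 and 10.59 in the vinclozolin pools and 4.98 and 5.03 in the control pools. The groups stood far apart, and the difference of 5.53 (SE 0.12, n = 2 pools each) is 46.2-fold. In the 12 pools of the other 6 groups Krt25 lay between 4.86 and 5.36, so no other pool came near the vinclozolin pools. Of the 6 genes only 3 pass the filter without the vinclozolin day 35 pools.

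Krt73, a type II keratin of the inner root sheath cuticle, had 11.10 and 10.41 in the vinclozolin pools, against 6.40 and 6.55 in the control pools (difference 4.28, SE 0.17, limma adjusted p = 3.08e-08). Krt72, of the same layer, had 10.39 and 9.52, against 5.70 and 5.87 in the control pools (difference 4.17, SE 0.20). Krt27 had 9.77 and 9.51 in the vinclozolin pools and 5.49 and 5.62 in the control pools (difference 4.09, SE 0.10). In each of these genes the lower vinclozolin pool stood above the higher control pool by several log2 units. Krt28 had 9.13 in each vinclozolin pool, against 6.35 and 6.22 in the control pools (difference 2.84, SE 0.09). Krt26 had 8.90 and 7.85, against 5.17 and 5.43 in the control pools (difference 3.08, SE 0.26), so pool 1 was the higher of the vinclozolin pools.

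The promoters of 4 of these keratins and of the hair shaft keratin Krt31 are shown because the genes moved together and each holds the TATA box letters TATAAA near its start. They are the 250 bases before the start in RefSeq annotation of the rat assembly GRCr8, written 5′ to 3′ on the gene's own strand, which is the minus strand in all 5. Capitals mark TATAAA, and CTTTGA or its reverse complement TCAAAG, the core letters bound by TCF and LEF factors. The Krt25 window lies at chr10:84771198-84771447, Krt27 at chr10:84800132-84800381, Krt28 at chr10:84824858-84825107, Krt73 at chr7:134815029-134815278 and Krt31 at chr10:85483301-85483550.
Krt25: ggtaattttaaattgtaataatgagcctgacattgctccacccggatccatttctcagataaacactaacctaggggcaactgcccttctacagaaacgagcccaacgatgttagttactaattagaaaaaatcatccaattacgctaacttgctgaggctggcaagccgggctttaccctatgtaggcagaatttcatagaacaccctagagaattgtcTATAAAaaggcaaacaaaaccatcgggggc
Krt27: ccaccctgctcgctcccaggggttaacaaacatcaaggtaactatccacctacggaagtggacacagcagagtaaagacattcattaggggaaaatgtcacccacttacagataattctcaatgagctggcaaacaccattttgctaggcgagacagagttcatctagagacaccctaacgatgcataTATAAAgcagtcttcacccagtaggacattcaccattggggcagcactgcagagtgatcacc
Krt28: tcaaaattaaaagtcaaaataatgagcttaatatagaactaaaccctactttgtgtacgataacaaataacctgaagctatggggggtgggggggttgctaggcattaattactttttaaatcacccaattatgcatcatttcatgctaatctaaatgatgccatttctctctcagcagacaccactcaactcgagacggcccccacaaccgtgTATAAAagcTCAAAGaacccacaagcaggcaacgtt
Krt73: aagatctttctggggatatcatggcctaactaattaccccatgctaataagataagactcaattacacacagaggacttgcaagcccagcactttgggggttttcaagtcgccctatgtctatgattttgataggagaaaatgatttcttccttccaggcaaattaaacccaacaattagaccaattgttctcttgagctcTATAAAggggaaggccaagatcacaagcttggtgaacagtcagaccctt
Krt31: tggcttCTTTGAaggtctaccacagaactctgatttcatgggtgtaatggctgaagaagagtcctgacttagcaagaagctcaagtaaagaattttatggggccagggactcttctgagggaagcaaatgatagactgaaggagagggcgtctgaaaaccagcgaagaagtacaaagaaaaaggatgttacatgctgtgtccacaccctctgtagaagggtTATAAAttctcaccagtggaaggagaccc
TATAAA began 30 bases before the start in Krt25, 62 in Krt27, 36 in Krt28, 49 in Krt73 and 29 in Krt31. Over all 27457 genes with a promoter in the table, 14.1% held TATAAA or TTTATA on either strand, and 15 of the 40 matched genes among the 44 higher hair and skin genes did (37.5%). CTTTGA or TCAAAG occurred in 14.9% of all genes and in 8 of the 40 (20%). These matches describe letters only, and no binding was measured.

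Keratins of the hair shaft followed. Of 14 named members 10 were tested and 8 rose (median of those tested 1.64). Krt31, a cortex keratin, had 9.93 and 9.02 in the vinclozolin pools, against 6.332 and 5.998 in the control pools (difference 3.31, SE 0.24, adjusted p = 7.28e-06). Krt85, a matrix and early cortex keratin, had 10.39 and 9.99, against 6.938 and 6.999 in the control pools (difference 3.22, SE 0.14). Krt33b had 10.49 and 9.45 in the vinclozolin pools and 7.27 and 7.25 in the control pools (difference 2.72, SE 0.24), and Krt35 rose by 2.42 (SE 0.20). The groups did not overlap in any of these 4 genes, and pool 1 was the higher vinclozolin pool in all 14 named members. Krt34, Krt32 and Krt39 lay under the filter and were not tested, with 7.83 and 6.91, 7.28 and 6.68, and 6.21 and 5.86 in the vinclozolin pools, against 5.23 and 5.22, 5.61 and 5.26, and 4.94 and 5.06 in the control pools. The type II hair keratins Krt81, Krt83, Krt86 and Krt87 are near copies of each other, so how far their probe sets measure each gene on its own was not tested.

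Proteins that harden the fibre were higher as well. Of 8 keratin-associated proteins 6 rose (median of the 8 tested 1.40). Krtap15-1 had 10.99 and 10.10 in the vinclozolin pools, against 5.51 and 5.50 in the control pools (difference 5.04, SE 0.35). Krtap1-5 had 10.48 and 9.70, against 6.29 and 6.21 in the control pools (difference 3.84, SE 0.23), and Krtap14 had 9.74 and 8.14, against 5.86 and 5.75 (difference 3.13, SE 0.35). The highest other pool for Krtap15-1, Krtap1-5 and Krtap14 was genistein pool 2 at PND 35, with 6.82, 6.83 and 6.35, below both vinclozolin pools in each gene.

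Of 8 genes of hair cornification and adhesion 6 rose (median of the 8 tested 1.43). S100a3, a calcium-binding protein of the hair cuticle, had 9.49 and 9.06 in the vinclozolin pools and 5.92 and 5.99 in the control pools (difference 3.32, SE 0.19, adjusted p = 1.05e-06). Dsg4, an adhesion protein of hair shaft desmosomes, had 9.25 and 8.43, against 5.46 and 5.62 in the control pools (difference 3.30, SE 0.20). Gprc5d, a receptor of the hair-forming zone, rose by 2.44 (SE 0.17), and Tgm3, a transglutaminase that cross-links hair proteins, rose by 1.63 (SE 0.21). None of these genes overlapped between the groups.

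Transcription factors and signals that run the follicle moved less. Of 16 regulators, all tested, 3 rose (median 0.48). Foxn1, which switches on hair keratins and whose loss gives the nude phenotype in mice, had 7.77 and 7.41 in the vinclozolin pools, against 6.14 and 6.12 in the control pools (difference 1.45, SE 0.11, adjusted p = 1.52e-05). Ovol1, a zinc finger factor of epithelia, rose by 1.28 (SE 0.11), and Lhx2, a factor of follicle stem cells, rose by 0.53 (SE 0.11, adjusted p = 0.049). The call on Lhx2 was lost without either control pool and without vinclozolin pool 1. Lef1, a nuclear partner of Wnt signalling, had 7.90 and 7.25 in the vinclozolin pools and 6.93 and 6.59 in the control pools and did not pass (adjusted p = 0.0513). Lgr5, a stem cell receptor of the follicle, had 7.16 and 6.88, against 6.42 and 6.19 in the control pools, and did not pass either.

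Cells that accompany the follicle gave other values. None of 4 tested dermal papilla genes passed (median 0.03). Their log2 fold changes were -0.34 for Alx4, -0.09 for Sox2, 0.15 for Corin and 0.25 for Crabp1, so 2 lay above 0 and 2 below. Alx4, a homeobox factor and the lowest of the 4, had 8.37 and 8.10 in the vinclozolin pools, against 8.55 and 8.60 in the control pools. None of the 2 tested melanocyte genes passed (median -0.13). The pigment enzymes Tyr and Tyrp1 lay under the filter and were not tested. Tyr had 4.60 and 4.58 in the vinclozolin pools, against 4.64 and 4.57 in the control pools, and Tyrp1 had 4.84 and 4.74, against 4.78 and 4.85. The Wistar rat is an albino strain, and what bearing this has on these values was not tested.

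Genes of the cornified epidermis rose too, 14 of 26 tested (median 0.83). Cnfn, a protein of the cornified envelope, had 9.14 and 8.95 in the vinclozolin pools, against 6.30 and 6.35 in the control pools (difference 2.72, SE 0.09, adjusted p = 4.71e-09). Pkp1, a desmosomal plaque protein, had 8.87 and 9.08, against 7.28 and 7.29 in the control pools (difference 1.69, SE 0.11), and Dsc3, a desmosomal cadherin of basal layers, rose by 1.74 (SE 0.16). Sbsn, suprabasin, had 8.71 and 8.85, against 7.35 and 7.34 in the control pools (difference 1.43, SE 0.08). In these genes the vinclozolin pools lay close together and above all other pools. The count of 14 was 7 without control pool 2 and 9 without control pool 1.

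Other epidermal genes differed widely between the vinclozolin pools. Klk7, a protease that sheds cornified cells, had 8.67 and 11.64 in the vinclozolin pools, against 6.52 and 6.42 in the control pools (difference 3.68, SE 0.62, adjusted p = 0.0136). Krt10, the suprabasal keratin of epidermis, had 8.33 and 6.56, against 6.11 and 5.87 in the control pools, and did not pass (adjusted p = 0.102). Its partner Krt1 had 7.60 and 5.39, against 4.75 and 4.98 in the control pools, and lay under the filter. Klk7 was thus far higher in vinclozolin pool 2, and Krt1 and Krt10 in pool 1. Without either control pool, Klk7 no longer passed.

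Of 5 sebaceous gland genes tested, 1 rose, Elovl3, a fatty acid elongase, with 7.85 and 6.50 in the vinclozolin pools, against 5.54 and 5.70 in the control pools (difference 1.55, SE 0.30), and it did not pass without either control pool. Mc5r, a melanocortin receptor of sebaceous cells, had 6.10 and 7.46, against 5.70 and 6.03 in the control pools, and did not pass. Fa2h, a fatty acid hydroxylase, had 5.60 and 7.66, against 5.62 and 5.53 in the control pools, and did not pass. The 6 named sebaceous genes averaged 6.25 and 6.58 in the vinclozolin pools, against 5.69 and 5.72 in the control pools and 5.48 to 5.76 in the 12 other pools. Elovl3 is also the 1 higher gene of 4 tested on the brown adipocyte list. It was higher in pool 1, while Mc5r and Fa2h were higher in pool 2. Elovl3, Mc5r and Fa2h passed the filter only through the vinclozolin pools, so their values are a description with no weight as a test.

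Keratins shared by skin and mammary epithelium gave 3 higher genes of 9 tested (median 0.37). Krt17, made in the outer root sheath and in some mammary basal cells, had 9.80 and 10.04 in the vinclozolin pools, against 7.57 and 6.80 in the control pools (difference 2.74, SE 0.21, adjusted p = 1.52e-05). Krt14, the keratin of basal epidermis and of mammary basal cells, had 9.76 and 10.66, against 8.73 and 7.99 in the control pools (difference 1.85, SE 0.27, adjusted p = 0.00397). For both genes control pool 2 was the lowest of all 16 pools, and Krt14 did not pass without it. Krt23 rose by 0.72 (SE 0.14) and did not pass without vinclozolin pool 2 or without either control pool. Krt8 had 9.91 and 9.86, against 9.65 and 9.67 in the control pools, and Krt18 had 8.73 and 8.97, against 8.29 and 8.44, and neither passed (adjusted p = 0.28 and 0.0534).

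All 44 higher hair and skin genes had both vinclozolin pools above all 12 pools of the other 6 groups. They were chosen for high values in the vinclozolin pools, so this count is largely built in. Of all 85 hair and skin genes tested 53 did, against 2.11% of all genes tested. Of the 85, 10 passed the filter only through the vinclozolin pools. All 44 were also higher in the vinclozolin pools than in the PND 35 mixture pools, a comparison that called 171 genes higher (1.45%) and 137 lower (1.16%) and shares the vinclozolin pools with the main one. Krt73 stood at 6.49 and 6.38 in those mixture pools (vinclozolin minus mixture 4.32, adjusted p = 1.97e-08). Pool 1 had the higher value of the vinclozolin pair in 36 of the 44. Leaving out 1 pool at a time left 51 hair and skin genes called without vinclozolin pool 1, of which 49 were higher, 53 without vinclozolin pool 2, 32 without control pool 1 and 29 without control pool 2. Of the inner root sheath keratins, Krt28, Krt72 and Krt73 passed in each of these 4 settings. Krt25, Krt26 and Krt27 passed the filter only through the vinclozolin pools, so these settings are no test of them.

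**Figure D2:**
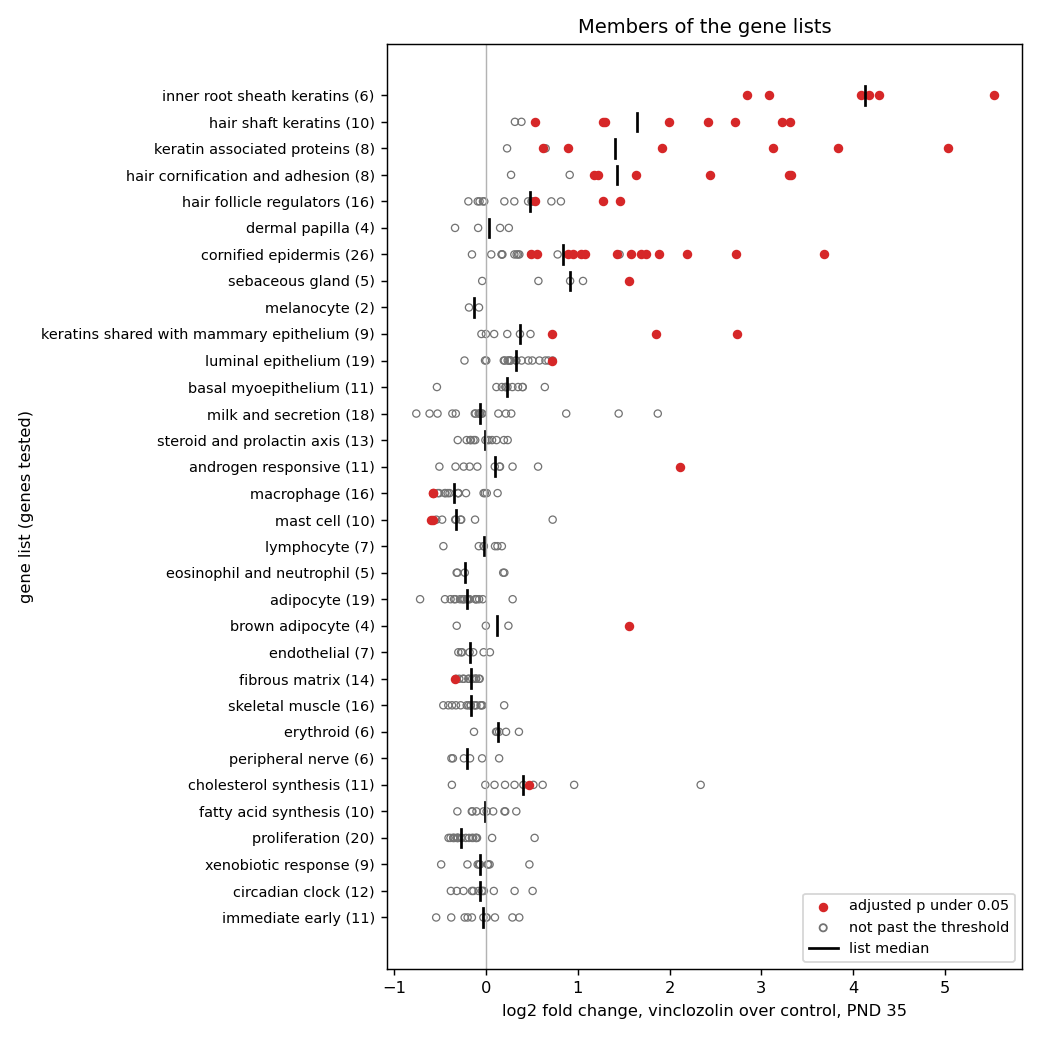
Log2 fold change of vinclozolin over control at PND 35 (x axis) for the tested members of each gene list (rows, number tested in brackets). Red points passed an adjusted p of 0.05, open points did not, and black bars are list medians, which run from 4.13 for inner root sheath keratins to -0.35 for macrophage genes.

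The vinclozolin pools differed from each other more than any other pair. Their values correlated at 0.989 over all probe sets, with an SD of the difference of 0.303 on the log2 scale, against 0.995 to 0.997 and 0.162 to 0.206 in the other 7 groups. Pool 2 held 67 named genes at least 1 log2 unit above all 15 other pools, 32 of them by at least 2 units, while pool 1 held 10 and 1. The other 14 pools held between 0 and 19 such genes, the 19 in mixture pool 2 at PND 35. The genes named next were chosen after their values were seen and are given with no test of the difference between the pools.

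Cyp2b12, a cytochrome P450 known from the preputial gland of the rat, a modified sebaceous gland, had 12.97 in pool 2 and 6.40 in pool 1, and at most 5.72 in the 14 other pools. Cyp2b15, a relative known from the same gland, had 11.54 in pool 2 and 5.96 in pool 1, and its probe set may share sequence with Cyp2b12. Cers3, a ceramide synthase of skin, had 9.91 in pool 2 and 5.53 in pool 1, and Gusb, beta-glucuronidase, had 11.35 and 8.16. In each the gap between the vinclozolin pools exceeded 3 log2 units, and these genes did not pass the test against control or lay under the filter.

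Hsd3b2, a 3-beta-hydroxysteroid dehydrogenase, had 10.58 in pool 2 and 6.55 in pool 1. Cyp17a1, which makes androgen precursors, had 9.14 and 5.13, and Mup5, a major urinary protein that carries pheromones, had 12.86 and 7.46. For Hsd3b2 and Mup5, pool 1 lay inside the range of the 14 other pools. In the cholesterol pathway, Idi1, an isomerase of isoprenoid synthesis, had 11.67 in pool 2 and 7.65 in pool 1, against 7.40 and 7.25 in the control pools. Fdft1, squalene synthase, had 12.004 and 10.509, against 10.276 and 10.318 in the control pools. Lpo and Lao1, enzymes found in milk, had 12.12 and 10.65 in pool 2, against 7.56 and 6.21 in pool 1.

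Fat-making genes ran the other way. The 10 fatty acid synthesis genes averaged 11.93 in vinclozolin pool 1 and 10.86 in pool 2, against 11.38 and 11.41 in the control pools. The 12 pools of the other 6 groups lay between 11.16 and 11.73, so 1 vinclozolin pool stood above them and the other below. Elovl6, a fatty acid elongase, had 12.73 in pool 1 and 10.47 in pool 2, and Acss2, an acetyl-CoA synthetase, had 10.57 and 8.78. None of the 10 passed the test (median -0.01), and none of 19 adipocyte genes did (median -0.21).

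**Figure D3:**
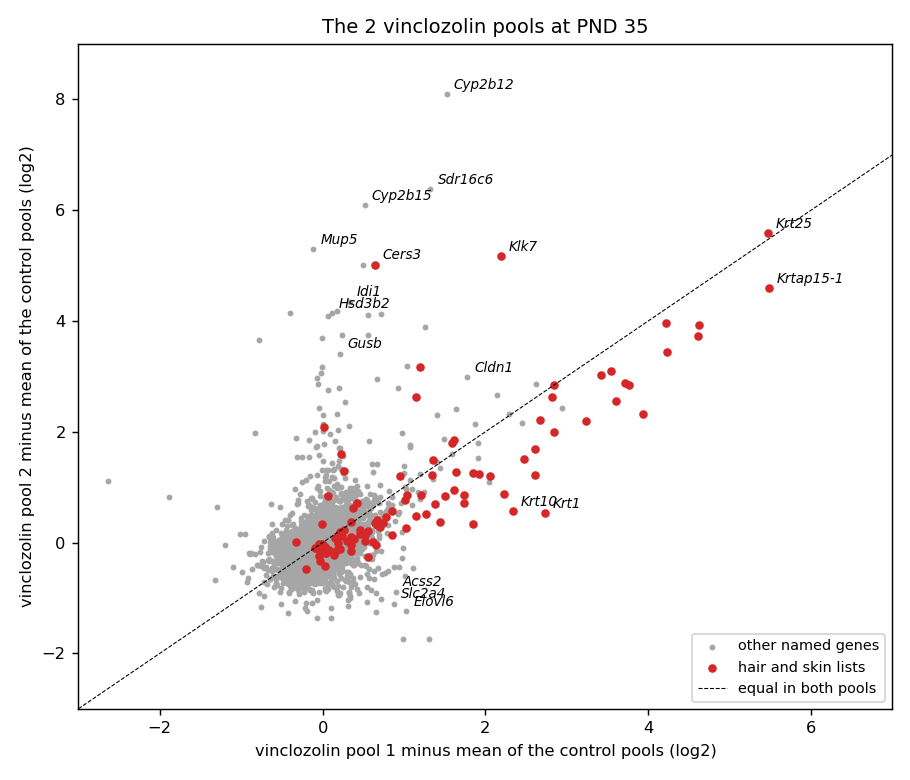
Each named gene's log2 value in vinclozolin pool 1 (x axis) and pool 2 (y axis) at PND 35, minus the mean of the control pools, with hair and skin list genes in red and the dashed line where both pools are equal. Krt25 lies near the line and most hair genes a little below it, while Cyp2b12, Cyp2b15, Sdr16c6 and Mup5 are far higher in pool 2 than in pool 1.

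Apart from hair and skin genes, 66 genes were higher. Of these, 21 are genes of stratified epithelium by a list written after the calls were seen, which therefore supports nothing, and 45 are not. Kprp, a keratinocyte proline-rich protein, had 8.18 and 7.68 in the vinclozolin pools, against 5.16 and 5.32 in the control pools (difference 2.69, SE 0.15). Gsdma, a gasdermin of skin, had 7.78 and 7.81, against 5.55 and 5.44 in the control pools (difference 2.30, SE 0.10). Kprp and Gsdma passed the filter only through the vinclozolin pools and had to differ, so their values are a description too. Scel, sciellin of the cornified envelope, rose by 2.31 (SE 0.14). Serpinb5, maspin, had 8.06 and 8.33, against 6.30 and 6.07 in the control pools (difference 2.01, SE 0.12), and Cst6, a protease inhibitor of skin, rose by 2.03 (SE 0.18). The groups stood apart in all of these. Both vinclozolin pools exceeded the 12 pools of the other 6 groups in 19 of the 21, which were chosen for high values in the vinclozolin pools. The 33 named cornified epidermis genes averaged 7.25 and 7.30 in the vinclozolin pools, against 6.33 and 6.28 in the control pools and 6.24 to 6.41 in the 12 other pools. What part these epidermal genes' source had in the changes of the other higher and lower genes was not tested.

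In several higher genes vinclozolin pool 2 was well above pool 1. Cldn1, a tight junction protein of epidermis and other epithelia, had 10.12 and 11.33, against 8.26 and 8.45 in the control pools (difference 2.38, SE 0.28, adjusted p = 0.000826). Ly6g6c had 9.001 and 11.639, against 7.77 and 7.71 in the control pools (difference 2.58, SE 0.55, adjusted p = 0.0477). Slc15a1, a peptide transporter, had 6.83 and 8.70, against 5.85 and 5.96 in the control pools (difference 1.86, SE 0.40). Ly6g6c and Slc15a1 did not pass without either control pool, whereas Cldn1 passed in all 4 settings.

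The 45 remaining higher genes had changes from 0.28 to 2.11 (median 0.64). In 29 of them both vinclozolin pools lay above the 12 pools of the other 6 groups. These genes too were chosen for high values in the vinclozolin pools. Cpm, carboxypeptidase M, had 9.74 and 9.35 in the vinclozolin pools, against 7.87 and 7.78 in the control pools (difference 1.72, SE 0.16, adjusted p = 6.8e-05). Clca5 rose by 1.68 (SE 0.30), and Ass1, argininosuccinate synthase, had 8.29 and 8.30, against 6.93 and 6.47 in the control pools (difference 1.59, SE 0.29). The calls on Clca5 and Ass1 were lost without vinclozolin pool 2 or without control pool 2, and that on Ass1 without control pool 1 too. Of the 45, 31 were also higher than in the mixture pools, a comparison that called 1.45% of all genes tested higher. It shares the vinclozolin pools that chose the 45, so this count is partly built in.

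Markers of mammary epithelium moved less than these, and most luminal and basal markers were higher. The log2 fold change was above 0 in 17 of 19 luminal, 10 of 11 basal and 6 of 18 milk and secretion genes. The median over all genes tested was -0.02. Genes of a list share the same pools, so these counts are no test. Of 19 luminal genes 1 rose, Esrp1, a splicing factor of epithelia, by 0.72 (SE 0.15, adjusted p = 0.0374), and the median of the list was 0.33. Esrp1 did not pass without vinclozolin pool 2 or without either control pool. Epcam, an epithelial adhesion protein, had 9.74 and 10.10 in the vinclozolin pools, against 9.38 and 9.45 in the control pools, and did not pass (adjusted p = 0.0604). None of 11 basal genes passed (median 0.23), and Tp63, the transcription factor of basal and epidermal cells, had 8.86 and 9.40, against 8.51 and 8.47 in the control pools (adjusted p = 0.065). None of 18 milk and secretion genes passed (median -0.07). Csn2, beta-casein, had 8.41 and 10.34, against 9.87 and 9.54 in the control pools, so the vinclozolin pools lay on either side of the control pools. Csn1s1, alpha-s1-casein, had 12.76 and 12.99, against 12.95 and 12.88 in the control pools. All of these 19 luminal, 11 basal and 18 milk genes lay above the filter in their mean over the 16 pools.

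The hormone axes through which vinclozolin and the gland's growth are usually discussed held few calls. None of 13 tested genes of the estrogen, progesterone and prolactin axis passed (median -0.01). Esr1, the estrogen receptor alpha, had 10.20 and 10.23 in the vinclozolin pools, against 10.69 and 10.36 in the control pools (adjusted p = 0.316). Pgr, the progesterone receptor, had 9.45 and 9.10, against 9.46 and 9.11 in the control pools, and Prlr, the prolactin receptor, had 9.85 and 10.05, against 9.79 and 9.64. A miss of the threshold does not show that they are equal. The test was tried on simulated data with each gene's spread the same in all groups. It found 66.1% of genes changed by 0.5 on the log2 scale and 94.8% of those changed by 1. In the real data the vinclozolin pools differed more, with an SD of the difference of 0.303 against 0.162 to 0.206 in the other groups. These shares can therefore be too high here. The androgen receptor gene is unnamed on the array here. Of 11 androgen-responsive genes 1 rose, Acp3, prostatic acid phosphatase, with 8.59 and 10.74 in the vinclozolin pools, against 7.59 and 7.52 in the control pools (difference 2.11, SE 0.46, adjusted p = 0.049). Vinclozolin pool 2 was the highest of all pools for Acp3, and the call was lost without either control pool. Fkbp5, a chaperone induced by androgens and glucocorticoids, had 8.82 and 9.12, against 9.15 and 9.27, and did not pass.

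The 44 lower genes changed by 0.27 to 0.85 on the log2 scale (median -0.50), less than the higher ones. In 13 of them both vinclozolin pools lay below the 12 pools of the other 6 groups. Over all genes tested 2.31% did, but the 44 were chosen for low values in the vinclozolin pools. The comparisons of the 3 exposed groups at PND 35 share the control pools, and the median difference from the control mean over the 44 genes was -0.50 for vinclozolin, -0.18 for the mixture and -0.31 for genistein. In 31 of the 44 both control pools lay above all 6 pools of those groups. The 44 were chosen with control above vinclozolin, so this count is partly built in. Its share over all genes tested was not computed. Of 10 tested mast cell genes 2 fell (median -0.33). Hdc, histidine decarboxylase, which makes histamine, had 7.86 and 7.87 in the vinclozolin pools, against 8.45 and 8.49 in the control pools (difference -0.61, SE 0.09, adjusted p = 0.00696). Il1rl1, the receptor of interleukin 33, had 8.42 and 8.60, against 9.17 and 9.01 in the control pools (difference -0.58, SE 0.10, adjusted p = 0.0184). Mrgprx2, a receptor that degranulates mast cells in humans, had 7.57 and 7.43, against 8.39 and 8.30 in the control pools (difference -0.85, SE 0.16). The groups did not overlap in these genes.

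For Hdc and Il1rl1 the control pools at PND 35 were the highest of all 16. Hdc stood at 8.03 and 7.99 in the mixture pools and at 8.01 and 8.07 in the genistein pools of that age. Its value in the vinclozolin pools did not differ from the mixture pools past the threshold (difference -0.14, adjusted p = 0.403), nor did that of Il1rl1 (difference -0.32, adjusted p = 0.113). The calls on Hdc and Il1rl1 held without either vinclozolin pool and were lost without either control pool, and that on Mrgprx2 was lost without vinclozolin pool 2 too. Kit, a receptor of mast cells that luminal cells also carry, had 9.14 and 8.90, against 8.31 and 8.29 in the control pools, and did not pass (adjusted p = 0.0671).

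Of 16 macrophage genes 2 fell (median -0.35). Itgam, the integrin of myeloid cells, had 6.91 and 6.52 in the vinclozolin pools, against 7.32 and 7.27 in the control pools (difference -0.58, SE 0.11, adjusted p = 0.0291). C1qb, a chain of complement C1q, had 9.67 and 9.29, against 9.99 and 10.12 in the control pools (difference -0.58, SE 0.12). C3ar1, the receptor of complement C3a, fell by 0.66 (SE 0.13), and Pla2g2d, a secreted phospholipase, had 9.99 and 9.92, against 10.64 and 10.71 in the control pools (difference -0.72, SE 0.13). The calls on all 4 genes were lost without vinclozolin pool 2 or either control pool. In Itgam, C1qb and C3ar1 vinclozolin pool 2 was the lowest of all 16 pools. The macrophage count was 8 lower without vinclozolin pool 1, and 0 without vinclozolin pool 2 or either control pool. The 16 genes averaged 8.90 and 8.71 in the vinclozolin pools, against 9.08 and 9.15 in the control pools, and between 8.88 and 9.19 in the 12 other pools.

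**Figure D4:**
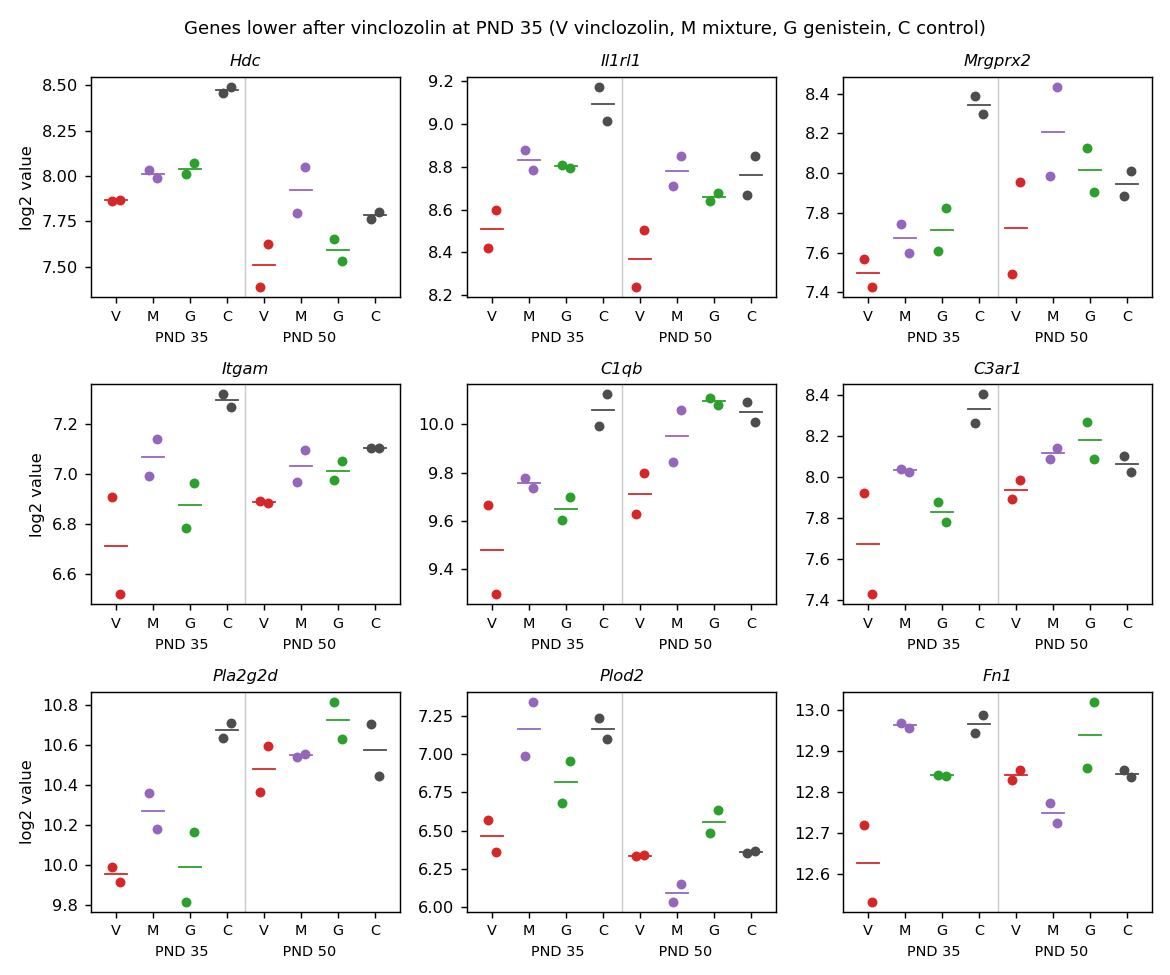
Log2 value (y axes, not from 0) of 9 genes that were lower after vinclozolin at PND 35 in all 16 pools, grouped as vinclozolin (V), mixture (M), genistein (G) and control (C) at PND 35 (left) and PND 50 (right), with points for pools and lines for group means. For Hdc, Il1rl1, Itgam and C3ar1 the control pools at PND 35 lie above the vinclozolin, mixture and genistein pools of that age, and Fn1 and Plod2 are high in the mixture pools too.

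Matrix genes held 1 lower member of 14, Fn1, fibronectin, with 12.72 and 12.53 in the vinclozolin pools, against 12.94 and 12.99 in the control pools (difference -0.34, SE 0.07, adjusted p = 0.049). The list median was -0.17, and Fn1 did not pass with any 1 of vinclozolin pool 2 or the control pools left out. Plod2, a lysyl hydroxylase that modifies collagen, had 6.57 and 6.36, against 7.23 and 7.10 in the control pools (difference -0.70, SE 0.12, adjusted p = 0.0184). It was also lower than in the mixture pools, at 6.99 and 7.34 (difference -0.70, adjusted p = 0.0139), and the call against control was lost without vinclozolin pool 2 or either control pool. Of the 44 lower genes, 10 passed the comparison with the mixture pools, and they included Fn1, Plod2 and Adgrg2. That comparison called 1.16% of all genes tested lower and shares the vinclozolin pools that chose the 44, so this count is partly built in. Ccl6, a chemokine, fell by 0.65 (SE 0.13), Ntsr1, the neurotensin receptor, by 0.61 (SE 0.11) and Asgr2, an asialoglycoprotein receptor subunit, by 0.61 (SE 0.12), and each was lost without at least 1 pool.

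The remaining lists gave few calls. Sqle, squalene epoxidase, was the 1 higher of 11 cholesterol synthesis genes, with 7.71 and 8.04 in the vinclozolin pools, against 7.44 and 7.37 in the control pools (difference 0.47, SE 0.09, adjusted p = 0.023), and it was lost without vinclozolin pool 2 or either control pool. None of 20 proliferation genes passed (median -0.27), and all 20 had a lower value in vinclozolin pool 1 than in pool 2. Their mean was 7.81 and 8.35 in the vinclozolin pools, against 8.41 and 8.17 in the control pools. Lymphocyte, eosinophil and neutrophil, endothelial, skeletal muscle, erythroid, nerve, xenobiotic, clock and immediate early lists held no call, with medians between -0.23 and 0.13. Adipoq, adiponectin, had 12.79 and 12.46, against 12.74 and 12.87 in the control pools, and did not pass.

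At PND 50 vinclozolin was not tested against control. The named inner root sheath keratins averaged 5.81 and 5.84 in the vinclozolin pools, against 5.79 and 5.85 in the control pools. Hair shaft keratins averaged 6.20 and 6.23, against 6.26 and 6.22, and keratin-associated proteins 7.23 and 7.28, against 7.31 and 7.34. Krt25 had 5.03 and 5.15 in the vinclozolin pools, against 4.95 and 5.06 in the control pools of that age. The effect at PND 35 minus that at PND 50 passed for 45 genes, all higher (0.381% of those tested), and for 0 genes in the other direction (0.0%). Of the 44 higher hair and skin genes 27 passed, and of the 44 lower genes none did, by a test that shares the day 35 pools with the comparison that chose them. For Krt73 the difference between ages was 4.41 (SE 0.24, adjusted p = 1.13e-06).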

How the data were processed

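The authors deposited 1 table of log2 values for 27342 Affymetrix probe sets and 16 arrays. For its log base, background correction and normalization, a statement is not given in the sources used here, and log2 was read from the range of 2.20 to 13.9. Of the probe sets 15097 had exactly 1 gene symbol, 323 several, and 11922 are unnamed here. Where a gene had several probe sets, as 499 of 14324 did, the brightest was kept, and a gene needed a mean at or above the 25th percentile of all probe sets (5.66). Tests used limma 3.58.1 in R 4.3.3 (lmFit and eBayes, 8 residual degrees of freedom), two-sided, with 1 mean for each of 8 groups and Benjamini-Hochberg adjustment over the 11796 genes tested. The median SE was 0.0941. In 20 simulations, with each gene's spread the same in all groups, 5.53% of calls were false. Groups came from the sample titles. Genes named were the 15 highest and 5 lowest hair, skin or shared keratin genes and the 12 highest and 12 lowest others past the threshold without overlap, up to 4 per list, and a panel of mammary genes; any others were chosen after their values were seen. The members, the 32 lists and the rule were chosen with earlier results of these data known. Alternatives were other filters, scalings, thresholds, smaller sets of arrays, array weights, an intensity trend, a replicate block and each pool left out. No slide or scan record was used here. Figures used matplotlib 3.10.9.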

Additional observations from a re-analysis of the deposited data

Results flagged for a closer look

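For 30 of the named genes the vinclozolin effect differed between PND 35 and PND 50 by limma's test of that difference, which 45 of all genes tested passed. The values here are the day 35 effect minus the day 50 effect on the log2 scale, and all are positive. Among inner root sheath keratins the difference was 5.45 for Krt25, 4.41 for Krt73, 4.27 for Krt72, 4.03 for Krt27, 2.95 for Krt28 and 2.83 for Krt26. Hair shaft keratins had 3.60 for Krt31, 3.08 for Krt85, 2.99 for Krt33b and 2.43 for Krt35, and keratin-associated proteins had 5.16 for Krtap15-1, 3.55 for Krtap1-5 and 3.45 for Krtap14. Genes of hair cornification and adhesion had 3.34 for S100a3, 3.36 for Dsg4, 2.48 for Gprc5d and 1.66 for Tgm3. Follicle regulators had 1.59 for Foxn1 and 1.13 for Ovol1. Cornified epidermis genes had 2.76 for Cnfn, 1.56 for Sbsn, 1.37 for Pkp1 and 1.58 for Dsc3. The remaining values were 2.65 for Krt17, 2.64 for Kprp, 2.77 for Cldn1, 2.29 for Scel, 2.23 for Gsdma, 2.08 for Cst6 and 2.13 for Serpinb5. Krt25, Krt26, Krt27, Krtap15-1, Dsg4, Kprp and Gsdma passed the filter only through the vinclozolin pools at PND 35, so their values are a description. These tests share the day 35 pools with the comparison that named the genes.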

How the results depend on the processing

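The count of 158 genes against control was 94 with the filter at the 50th percentile, 273 with all probe sets, 104 with array weights, 49 with only the 8 day 35 arrays, 25 with only the 4 arrays compared (10 of them other genes), 62 at an adjusted p of 0.01, 96 with at least a 1.5-fold change, and 54 to 844 with 1 pool left out, the 844 without vinclozolin pool 1. The hair and skin count of 44 was 12, 26 and 14 with that filter, the 8 arrays and the 4 arrays, and 29 to 53 with 1 pool left out. The count of 110 other genes was 221 with all probe sets, 59 with array weights, 21 with the 8 arrays, 27 at 0.01, 52 with the fold threshold, and 23 to 788 with 1 pool left out, the 788 again without vinclozolin pool 1, the 23 without control pool 2. The 44 lower genes became 450, 7, 6 and 2 lower genes without vinclozolin pool 1, vinclozolin pool 2, control pool 1 and control pool 2, and 0 with only the 4 arrays, where 25 genes were higher. The count against the mixture pools, 308, was 140 to 770, and that for the age difference, 45, was 11 with the 50th percentile filter and 38 to 186. With a replicate block the 5 counts were 154, 45, 105, 344 and 47. Deviations of same-numbered vinclozolin and control pools at PND 35 correlated at -0.08. Between all pairs of groups the correlation ran from -0.37 to 0.30. A single value of this kind cannot show whether the numbers pair the pools. Of all genes tested 1716 had an unadjusted p under 0.05. Of the named genes, 15 changed sign in 20 of the settings run for them, and neither value passed the test where the signs differed. With 1 pool left out their log2 fold changes ran -0.25 to 0.56 for Corin, -0.19 to 0.033 for Slc45a2, -0.17 to 0.0067 for Ms4a1, -0.59 to 0.12 for Mpo, -0.21 to 0.21 for Dio2. They ran -0.62 to 0.068 for Actn3, -0.24 to 0.52 for Alas2, -0.083 to 0.32 for Hbb, -0.43 to 0.12 for Scd, -0.96 to 0.33 for Thrsp. They ran -0.46 to 1.12 for Acly, -0.15 to 1.21 for Aurka, -0.70 to 0.29 for Gsta1, -0.18 to 0.16 for Pgr and -1.30 to 0.64 for Csn2. Dio2 was 0.0086 with quantile normalization. With the filter set on the 14 other arrays, 136 genes passed in all, 35 of them hair and skin genes and 97 others. Quantile normalization and median centring kept all 57 named calls. The cause of these shifts was not tested.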

Other observations

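Probe sets that are unnamed here were tested with all probe sets in 1 fit. Of 8033 that passed the filter, 97 were higher and 16 lower in the vinclozolin pools at PND 35 than in the control pools. The log2 fold changes of those called lay between -1.39 and 5.25. What genes they measure is not analysed here.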
